A study of Homo sapiens with 12 samples.

Results

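The genes described here encode the D cyclins, their kinases, 3 inhibitors of these kinases and 2 pocket proteins in MOLM-13 cells. The 10 members, CCND1, CCND2, CCND3, CDK4, CDK6, CDKN1B, CDKN2C, CDKN2D, RB1 and RBL2, were chosen by gene symbol out of the 60668 genes counted in each library. All 10 had enough counts to be tested. MOLM-13 is an established human leukaemia line of the monocytic type, in which the KMT2A (MLL) gene is fused to a partner and the FLT3 receptor kinase gene carries an internal tandem duplication. Cultures of this line were seeded in triplicate and kept for 8 days with DMSO alone (the vehicle), with gilteritinib (a FLT3 kinase inhibitor), with MI-3454 (an inhibitor of the binding of menin to MLL1) or with both agents together, which gives 4 groups of 3 libraries. Doses are not stated in these sources, and a single cell line limits the groups as a model of leukaemia. The titles were followed for the groups, because the treatment field carries a different trailing number in some libraries with MI-3454. The p-values measure the spread between cultures of this line.

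D cyclins bind and activate the kinases CDK4 and CDK6 early in G1. The active kinases phosphorylate RB1 and its relatives RBL1 and RBL2, the pocket proteins, which otherwise hold E2F transcription factors in check. INK4 proteins such as p18 (CDKN2C) and p19 (CDKN2D) bind CDK4 and CDK6 and keep the cyclin off, whereas p27 (CDKN1B) acts on assembled cyclin and kinase complexes, mainly those of CDK2. In blood cells CDK6 is known as the leading D-cyclin kinase, and RBL2 is known for the repression of cell cycle genes in resting cells as part of the DREAM complex.

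Ribosomal RNA was depleted before the libraries were made, and gene counts per library ranged from 6.47 M to 12.1 M, with the lowest in combination 3. Levels are in CPM, the count per 1e+06 counts of the library, with library totals adjusted by TMM factors. The share of uniquely placed reads that fell in no annotated exon was 16.6% to 20.4% with DMSO, 15.6% to 17.8% with gilteritinib, 17.4% to 25.5% with MI-3454 and 28.5% to 36.5% with both agents. Its part in the changes under both agents was not tested. All 8 myeloid marker genes were detected in every group, and their summed level went from 2124 to 2256 CPM with DMSO through 2494 to 2629 with gilteritinib and 9770 to 11080 with MI-3454 to 15300 to 16650 with both agents, while LYZ alone, which carried most of the sum with both agents, went from 373.5 to 446.3 CPM with DMSO to 13090 to 14230 with both agents. Within the list FLT3 went from 610.3 to 765.5 CPM with DMSO to 188.7 to 193.0 with both agents, and SPI1 was at 219.5 to 328.7 with DMSO and 270.5 to 323.4 with both agents. The part of these shifts in the members' values was not tested. The summed T cell, B cell and erythroid markers did not exceed 3.16 CPM in any library, with 2 or 3 of 4 T cell markers and 3 or 4 of 5 erythroid markers at 0 in each group. The stromal and endothelial list reached 495.6 CPM with both agents, of which PECAM1, which myeloid cells also express, gave up to 493.6. RN7SL1, a structural RNA, was highest within its group in DMSO 2 (4.27% of counts), gilteritinib 2 (2.88%), MI-3454 3 (4.56%) and combination 1 (1.66%).

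The members did not move as a block. With MI-3454, the cyclin gene CCND3 rose while CCND1, CCND2, CDK6 and RB1 fell, so 1 of 10 members rose and 4 fell, against 10.1% of all 13972 tested genes higher and 8.95% lower (edgeR quasi-likelihood test, Benjamini-Hochberg adjusted p under 0.05). With gilteritinib, the inhibitor gene CDKN2C rose and CCND2 fell, against 6.92% of genes higher and 8.18% lower. With both agents, RBL2 rose and 7 members fell, namely CCND1, CCND2, CDK4, CDK6, CDKN1B, CDKN2C and RB1, against 29.2% of genes higher and 28.4% lower. The median log2 change of the 10 members was -0.22 with MI-3454, -0.0045 with gilteritinib and -0.56 with both agents, and the median over all tested genes was within 0.0032 of 0 in these comparisons.

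The replicate number was used as a block in an alternative fit of every comparison. That fit is described here for gilteritinib against DMSO, where same-numbered libraries deviated together from their group means. The match by number was not strict, since gilteritinib 1 was closer to DMSO 3 (r = 0.262) than to DMSO 1 (r = 0.18). The blocked fit called CCND3, CDKN2C and CDKN2D higher and CCND2 and RB1 lower, against 17.7% of genes higher and 17.6% lower in the same fit. Of the members called without the block, both kept their call and direction with it. CCND3, CDKN2D and RB1 were also called without the 4 libraries highest in RN7SL1 within their groups (adjusted p = 0.0154, 0.0452 and 0.00335). In that fit 2132 of 13972 genes were higher and 2118 lower. It uses libraries of the blocked fit and is not independent of it.

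**Figure D1:**
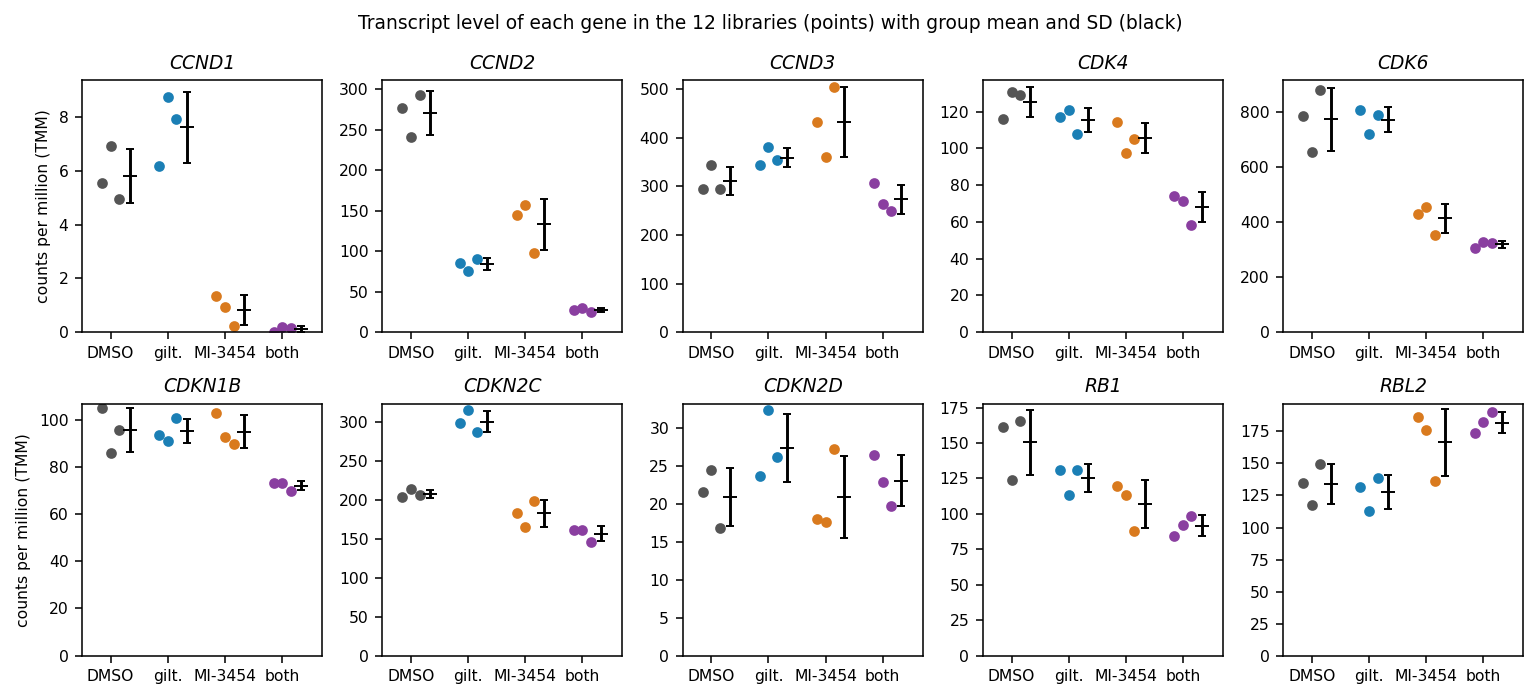
CPM of each of the 10 genes in the 12 libraries (points, coloured by group; gilt. is gilteritinib, both is the combination) with the group mean and SD in black, on a linear axis from 0. CCND2 lies at 241 to 294 CPM with DMSO and at 25.3 to 30.2 with both agents, and CDKN2C is highest in the 3 gilteritinib libraries at 288.0 to 315.

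CCND2 (chr12:4273772-4305350, plus strand, GENCODE release 29 on GRCh38, as for the genes that follow), the D cyclin that growth factor signals induce in many blood cells, fell with each agent and fell furthest with both. Its level was 278, 241 and 294 CPM in the DMSO libraries, 85.7, 75.7 and 90.5 with gilteritinib, 145, 157 and 97.7 with MI-3454, and 27.3, 30.2 and 25.3 with both agents. No library of any treated group reached a DMSO library, and the 4 groups did not overlap. The log2 change was -1.69 ± 0.11 (SE) with gilteritinib, -1.02 ± 0.17 with MI-3454 and -3.29 ± 0.12 with both, the last a 9.79-fold lower level (edgeR adjusted p = 1.29e-06, 0.00105 and 1.45e-12). With both agents CCND2 was also lower than with gilteritinib by 1.60 ± 0.095 and lower than with MI-3454 by 2.26 ± 0.17 on the log2 scale. CCND2 was higher with MI-3454 than with gilteritinib (log2 difference 0.65 ± 0.15, adjusted p = 0.0125). That last call was lost without MI-3454 1 (adjusted p = 0.0646) or without MI-3454 2 (adjusted p = 0.0572), which left MI-3454 3, the lowest of its group, in the fit.

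CCND1 (chr11:69641087-69654474, plus strand), the D cyclin typical of epithelial and lymphoid tumours, was rare in these cells and nearly vanished where MI-3454 was present. The 3 libraries of a group together held 180 counts with DMSO, 218 with gilteritinib, 23 with MI-3454 and 3 with both agents. In CPM the libraries read 5.55, 6.93 and 4.97 with DMSO, 6.19, 8.75 and 7.93 with gilteritinib, 1.34, 0.927 and 0.217 with MI-3454, and 0, 0.212 and 0.142 with both. DMSO and gilteritinib overlapped, and both lay above every library that had received MI-3454. The level was 7.08 times higher with DMSO than with MI-3454 (95% counting interval 4.58 to 11.5) and 54.5 times higher with DMSO than with both agents (18.4 to 267). The intervals cover counting error only. With MI-3454 the log2 change was -2.80 ± 0.39 (adjusted p = 0.000304). The ratio of MI-3454 to both agents was 7.70 (95% counting interval 2.33 to 40.1). That difference passed the edgeR test (adjusted p = 0.0333) but was lost without any single library except MI-3454 3, with adjusted p from 0.0501 to 0.133. LTO1, a neighbour on the opposite strand that shares 497 exon bases with CCND1, stayed between a mean of 16.0 and 18.6 CPM in all groups.

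CCND3 (chr6:41934933-42050357, minus strand) was the most abundant D cyclin per length and was the 1 D cyclin that rose with MI-3454. It read 294, 343 and 295 CPM with DMSO, 343, 380.2 and 354 with gilteritinib, 431, 360.1 and 505 with MI-3454, and 306, 263 and 249.9 with both agents. The MI-3454 libraries all lay above the DMSO libraries, whereas the combination libraries overlapped them. With MI-3454 the log2 change was 0.48 ± 0.14 (adjusted p = 0.0351). That call was lost with the replicate block (adjusted p = 0.134). It was also lost without DMSO 1 (adjusted p = 0.151), DMSO 3 (0.121), MI-3454 1 (0.101) or MI-3454 3 (0.0838, with a log2 change of 0.35). With gilteritinib the change was 0.21 ± 0.11 (adjusted p = 0.22), and in the blocked fit it was 0.21 ± 0.074 (adjusted p = 0.0193). With both agents it was -0.18 ± 0.11 against DMSO and did not pass (adjusted p = 0.18), although it did without the 4 libraries highest in RN7SL1 (-0.20 ± 0.081, adjusted p = 0.0341). With both agents CCND3 was lower than with MI-3454 by 0.65 ± 0.13 and lower than with gilteritinib by 0.39 ± 0.097 on the log2 scale.

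**Figure D2:**
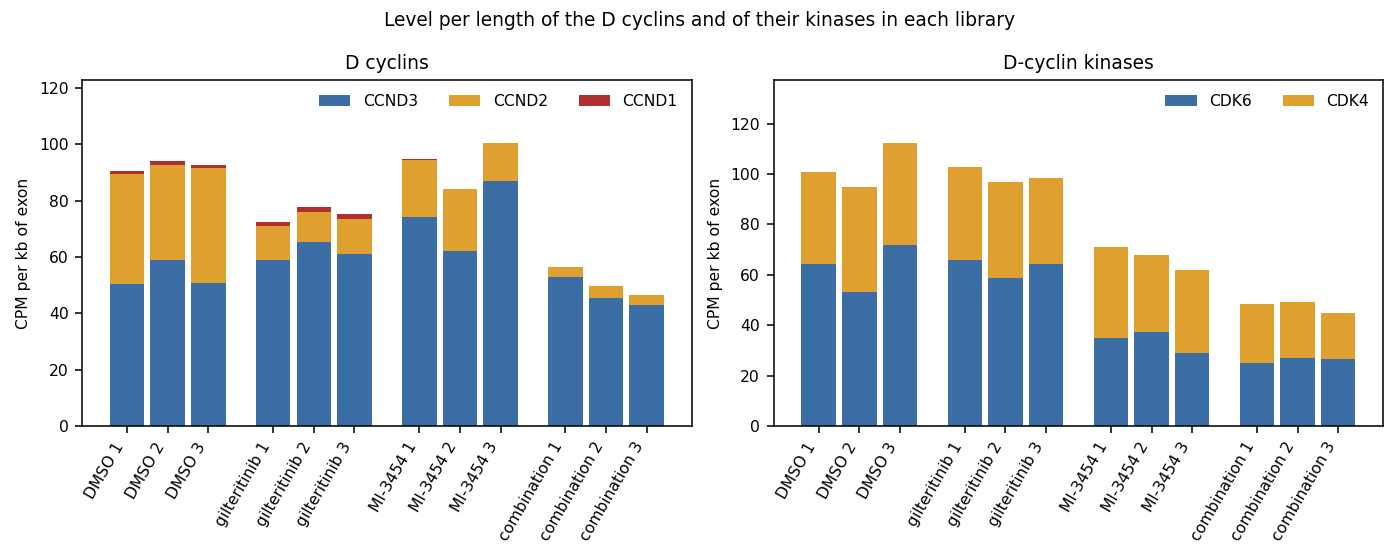
Stacked level per length (CPM per kilobase of exon) of the D cyclins and of their kinases in each of the 12 libraries, with linear axes from 0. CCND3 makes up 54.7% to 62.7% of the D-cyclin level with DMSO and 91.4% to 93.3% with both agents.

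To compare genes with each other, CPM was divided by the exon length of the gene. On this scale the D cyclins summed to 92.5 ± 1.86 CPM per kilobase with DMSO (SD, n = 3), 75.2 ± 2.79 with gilteritinib, 93.3 ± 8.36 with MI-3454 and 51.0 ± 5.10 with both agents. The total with MI-3454 overlapped that with DMSO, while CCND2 and CCND1 gave way to CCND3 within it. CCND3 made up 57.8% ± 4.33 of the D-cyclin level with DMSO, 82.3% ± 1.63 with gilteritinib, 79.5% ± 6.42 with MI-3454 and 92.4% ± 0.919 with both agents. Each treated group lay wholly above DMSO (two-sided exact permutation p = 0.1 in each, the smallest that 3 against 3 can give, and 0.15 after Benjamini-Hochberg adjustment over 15 such tests of shares and sums). By exon length, the D-cyclin sum was also wholly below DMSO with gilteritinib and with both agents (exact p = 0.1 in each, adjusted 0.15). For MI-3454 the exact p was 0.8. These sums depend on the length chosen, since CCND3 has 5802 exon bases but 2394 in its longest coding transcript. By coding length CCND3 averaged 129.7 CPM per kilobase with DMSO, 149.9 with gilteritinib and 180.5 with MI-3454. CCND2 averaged 41.8, 13.0 and 20.55 in the same groups. The sums were not tested on that length.

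CDK6 (chr7:92604921-92836594, minus strand) fell where MI-3454 was present and was level with DMSO under gilteritinib alone. It read 787, 654 and 880.2 CPM with DMSO, 807, 721 and 789.6 with gilteritinib, 430.5, 457 and 354 with MI-3454, and 306, 329 and 324.5 with both agents. The libraries with MI-3454, alone or combined, were all below the other 6. The log2 change was -0.90 ± 0.15 with MI-3454 (1.87-fold lower, adjusted p = 0.000906) and -1.27 ± 0.12 with both agents (2.42-fold lower, adjusted p = 1.46e-07). With gilteritinib it was -0.002 ± 0.12, with a 95% interval of -0.27 to 0.27. CDK6 was lower with both agents than with MI-3454 by 0.36 ± 0.11 on the log2 scale (adjusted p = 0.029). That smaller step did not pass with total-count scaling (adjusted p = 0.137), with the replicate block (0.0711), or without MI-3454 1 (0.0931), MI-3454 2 (0.096) or any single combination library (0.0838 to 0.0931).

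CDK4 (chr12:57747727-57756013, minus strand), the other D-cyclin kinase, changed against DMSO only under both agents in these tests. It read 116, 131 and 129 CPM with DMSO, 117, 121 and 108 with gilteritinib, 114, 97.5 and 105 with MI-3454, and 74.3, 71.5 and 58.5 with both agents. The combination libraries lay below all others, and the MI-3454 libraries lay below all DMSO libraries. The log2 change was -0.88 ± 0.11 with both agents (1.84-fold lower, adjusted p = 5.53e-06), -0.25 ± 0.12 with MI-3454 (adjusted p = 0.171) and -0.12 ± 0.098 with gilteritinib (adjusted p = 0.449). TSPAN31, which lies on the opposite strand and shares 1369 exon bases with CDK4, had group means between 18.5 and 20.3 CPM.

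The sum of CDK4 and CDK6 per kilobase was 102.7 ± 9.05 with DMSO, 99.4 ± 3.02 with gilteritinib, 67.1 ± 4.61 with MI-3454 and 47.6 ± 2.34 with both agents. The last 2 groups lay wholly below DMSO (exact permutation p = 0.1 in each, adjusted 0.15), and for gilteritinib the exact p was 0.7. CDK6 made up 61.3% ± 4.27 of this sum with DMSO and 63.3% ± 2.44 with gilteritinib. Its share was 50.2% ± 4.23 with MI-3454 (exact permutation p = 0.1, adjusted 0.15) and 55.0% ± 3.68 with both agents, where the groups overlapped (exact permutation p = 0.2).

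The CDK4 promoter is shown for its E boxes (CACGTG), the letters that MYC and related factors bind. RefSeq promoter entries (GRCh38.p14) matched 8 of the 10 members (not CCND1 and CCND2) with 14 windows, and the 250 bases before each start were searched on both strands. The window of CDK4, chr12:57752311-57752560 on the minus strand, held 3 E boxes. The motif was present in 6.32% of 34943 windows of that length, and at least 3 copies in 28 of them (0.0801%). The cut of 3 copies was not planned. It is the number found in the CDK4 window, which is among the 28, so the share is a description and not a test. CDKN2C also held 1 E box in each of 2 of its windows, and no other window of the 8 genes held one. The stretches around each E box are given 5′ to 3′ with the motif in capitals, and they lie at chr12:57752509-57752538, chr12:57752489-57752518 and chr12:57752394-57752423 (minus strand), then chr1:50960513-50960542 and chr1:50970164-50970193 (plus strand).
CDK4 site 1: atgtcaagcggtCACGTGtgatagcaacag
CDK4 site 2: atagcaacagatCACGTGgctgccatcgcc
CDK4 site 3: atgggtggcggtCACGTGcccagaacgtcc
CDKN2C site 1: gattgtgcacctCACGTGgttagtcacaca
CDKN2C site 2: ttgctgaataatCACGTGtgaatcgagggg
CDK4 sites 2 and 3 and CDKN2C site 2 lie wholly, and CDK4 site 1 partly, in exons of GENCODE release 29, which places some starts further upstream. The STAT motif TTCNNNGAA was found in 1 member window, an entry of RB1 inside the gene, against 6.56% of all windows. RB1 had no other window, so the bases before its first annotated start (chr13:48303726) were not searched for any motif. The forkhead motif TGTTTAC (2.98% of all windows) and the E2F motifs TTTCGCGC (0.429%) and TTTGGCGC (0.547%) were in none of the 14. These matches describe letters in the windows, and binding was not measured.

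**Figure D3:**
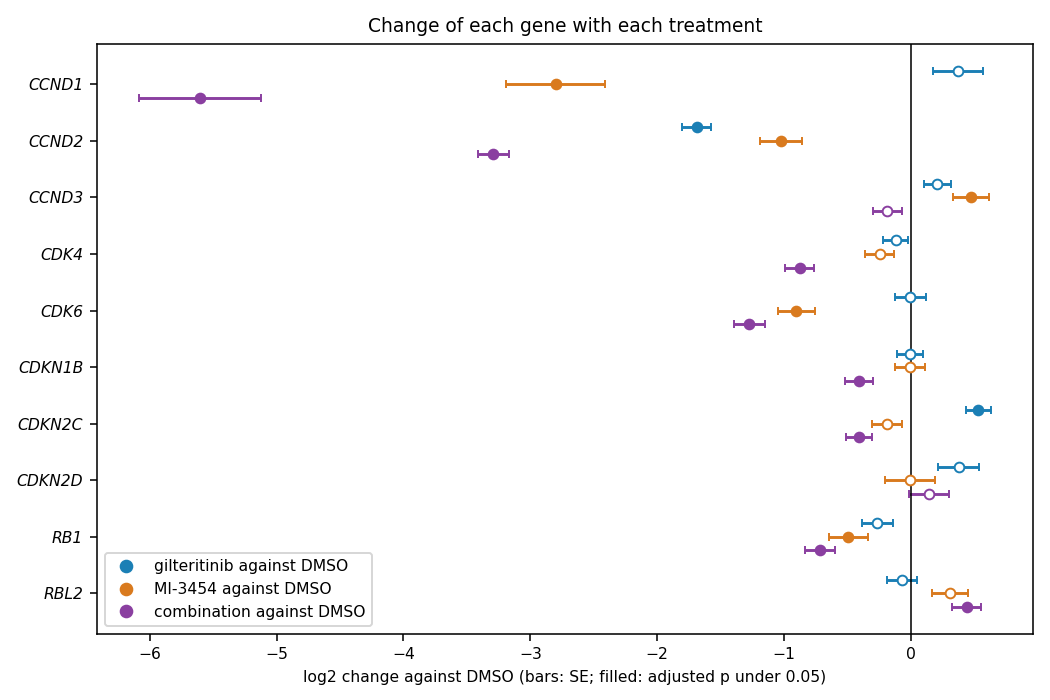
Log2 change against DMSO of each of the 10 genes with gilteritinib (blue), MI-3454 (orange) and both agents (purple), with SE bars; filled points passed the test (adjusted p under 0.05) and open points did not. The value for CCND1 with both agents rests on 3 counts and depends on the fit's prior count.

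CDKN2C (chr1:50960745-50974633, plus strand), which encodes the INK4 inhibitor p18, rose with gilteritinib and fell with both agents. It read 204, 214 and 206 CPM with DMSO, 298.5, 315 and 288.0 with gilteritinib, 183, 165 and 199 with MI-3454, and 162, 162 and 145 with both. The gilteritinib libraries lay above and the combination libraries below every other library. The log2 change was 0.53 ± 0.097 with gilteritinib (1.45-fold higher, adjusted p = 0.00313) and -0.41 ± 0.10 with both agents (1.33-fold lower, adjusted p = 0.00256). With MI-3454 it was -0.19 ± 0.12 (adjusted p = 0.316), although the MI-3454 libraries lay below all DMSO libraries. Between both agents and gilteritinib alone the log2 difference was -0.94 ± 0.085 (1.91-fold lower, adjusted p = 4.79e-07).

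CDKN2D (chr19:10566462-10569059, minus strand), which encodes p19, was the least abundant of the 3 inhibitor members, and none of the 6 comparisons between groups called it without the block. It read 21.6, 24.4 and 16.9 CPM with DMSO, 23.7, 32.3 and 26.1 with gilteritinib, 18.0, 17.6 and 27.2 with MI-3454, and 26.4, 22.9 and 19.8 with both agents. All groups overlapped with DMSO. With gilteritinib the log2 change was 0.38 ± 0.16 (unadjusted p = 0.0368, adjusted p = 0.137), and in the blocked fit it was 0.38 ± 0.11 (adjusted p = 0.00417). MI-3454 3 was the high library of its group. Without it the difference between MI-3454 and gilteritinib was -0.63 ± 0.15 (adjusted p = 0.00443), and that between both agents and MI-3454 was 0.40 ± 0.14 (adjusted p = 0.0307). Per kilobase, p18 and p19 transcripts summed to 76.5 ± 3.76 with DMSO, 108.8 ± 6.71 with gilteritinib, 69.0 ± 8.43 with MI-3454 and 62.4 ± 4.91 with both agents. The sum was wholly above DMSO with gilteritinib and wholly below it with both agents (exact permutation p = 0.1 in each, adjusted 0.15).

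CDKN1B (chr12:12715058-12722371, plus strand), which encodes p27, moved little at the transcript level. It read 105, 86.0 and 95.7 CPM with DMSO, 93.6, 90.9 and 100.7 with gilteritinib, 103, 92.6 and 89.6 with MI-3454, and 73.1, 73.1 and 69.8 with both agents. Only the combination libraries stood apart, all below the rest. The log2 change with both agents was -0.41 ± 0.11 (1.33-fold lower, adjusted p = 0.0037). Against MI-3454 the combination was lower by 0.39 ± 0.093 on the log2 scale (adjusted p = 0.00889), a call lost with total-count scaling (0.0536). With MI-3454 the 95% interval of the change was -0.27 to 0.25, and with gilteritinib it was -0.23 to 0.22. The abundance of p27 is known to be set largely by protein turnover, which these data did not measure.

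RB1 (chr13:48303726-48599436, plus strand), the pocket protein gene lost in retinoblastoma, was lower with MI-3454 and with both agents. It read 162, 124 and 165.5 CPM with DMSO, 131, 113.5 and 131 with gilteritinib, 119.7, 113 and 88.1 with MI-3454, and 84.3, 92.1 and 98.8 with both agents. The MI-3454 and combination libraries lay below all DMSO libraries, and DMSO 2 overlapped the gilteritinib group. The log2 change was -0.72 ± 0.12 with both agents (1.64-fold lower, adjusted p = 9.55e-05) and -0.49 ± 0.15 with MI-3454 (adjusted p = 0.0401). The MI-3454 call was lost with total-count scaling (adjusted p = 0.0839), with the replicate block (0.113) and without any single library except DMSO 2 (0.052 to 0.143). With gilteritinib it was -0.27 ± 0.12 (adjusted p = 0.171), in the blocked fit -0.26 ± 0.074 (adjusted p = 0.0039), and without DMSO 2 it was -0.39 ± 0.092 (adjusted p = 0.00823). Between both agents and MI-3454 it was -0.22 ± 0.12 (adjusted p = 0.202), and without MI-3454 3 it was -0.33 ± 0.086 (adjusted p = 0.00592). Without the 4 libraries highest in RN7SL1 it was -0.28 ± 0.082 (adjusted p = 0.0091).

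RBL2 (chr16:53433977-53491649, plus strand), which encodes the pocket protein p130, was the 1 member higher with both agents than with DMSO. It read 135, 118 and 149.5 CPM with DMSO, 132, 113 and 138 with gilteritinib, 186, 176 and 136.5 with MI-3454, and 173, 182 and 190.1 with both agents. The combination libraries lay above all DMSO and gilteritinib libraries, and MI-3454 3 was the low library of its group. The log2 change was 0.44 ± 0.11 with both agents (1.36-fold higher, adjusted p = 0.00278) and 0.31 ± 0.14 with MI-3454 (adjusted p = 0.164). Without MI-3454 3 the latter was 0.44 ± 0.14 (adjusted p = 0.0248), and the difference between MI-3454 and gilteritinib went from 0.37 ± 0.13 (adjusted p = 0.0667) to 0.49 ± 0.098 (adjusted p = 0.0016). Without the 4 libraries highest in RN7SL1, RBL2 was also called with MI-3454 (0.35 ± 0.088, adjusted p = 0.00736). AKTIP, on the opposite strand with 610 exon bases shared with RBL2, also rose with both agents (0.69 on the log2 scale, adjusted p = 0.0272) but from 2.72 to 4.43 CPM only. Whether reads were counted by strand is not given in the sources used here.

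The order of the levels per kilobase of exon changed with treatment. With DMSO it ran from CDK6 (63.1 ± 9.27) and CDKN2C (62.6 ± 1.57), which overlapped, through CCND3 (53.5 ± 4.86), then CDK4, CCND2 and CDKN1B (39.6 to 34.0, each overlapping the next), then RB1, RBL2 and CDKN2D (23.3 to 13.9, each overlapping the next), to CCND1 (1.20 ± 0.21). With gilteritinib CDKN2C led alone at 90.6 ± 4.15 and CCND2 dropped to the ninth place at 11.7 ± 1.05. With MI-3454 CCND3 led at 74.5 ± 12.5, and CDKN1B, CDK6 and CDK4 overlapped at 33.4 to 33.8. With both agents CDKN2C and CCND3 shared the lead at 47.1 each, and CCND2 was at 3.86 ± 0.34. Divided by the length of the longest coding transcript in place of all exons, CCND3 led in every group, from 114 to 180.5.

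Between both agents and each single agent, the members mostly fell. Against gilteritinib, 8 members fell and RBL2 rose (log2 difference 0.52 ± 0.087), against 30.3% of all genes lower and 30.1% higher, and CDKN2D was the member not called. Against MI-3454, 6 members fell (CCND1, CCND2, CCND3, CDK4, CDK6 and CDKN1B) and none rose, against 15.1% lower and 14.1% higher. MI-3454 against gilteritinib gave 1 higher member, CCND2, and 3 lower members, CCND1, CDK6 and CDKN2C, against 9.96% higher and 7.43% lower. These comparisons share libraries with those against DMSO and are not independent of them.

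Whether both agents together gave the sum of their single effects was tested as an interaction over the 12 libraries, that is, the difference between the log2 change with both agents and the sum of the 2 single-agent changes. By this test 4 members were called lower than that sum and none higher, against 8.74% of all genes called lower and 6.55% higher. CCND3 departed by -0.87 ± 0.17 (adjusted p = 0.0036), since its single changes added to 0.69 and its change with both agents was -0.18. CDKN2C departed by -0.76 ± 0.13 (adjusted p = 0.00113), with single changes adding to 0.35 and a change with both agents of -0.41. CDK4 departed by -0.51 ± 0.14 (adjusted p = 0.0256). The CDK4 term did not pass with total-count scaling (adjusted p = 0.0875) or without DMSO 1, gilteritinib 1, gilteritinib 2, MI-3454 1, combination 2 or combination 3 (0.0565 to 0.0937). CCND1 passed as well (adjusted p = 0.0192), but its value with both agents rests on 3 counts, and it did not pass without MI-3454 1 (adjusted p = 0.0752) or combination 1 (0.0618).

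For CCND2 the term was -0.58 ± 0.21 and did not pass (adjusted p = 0.0722), and without MI-3454 3 it was -0.76 ± 0.15 (adjusted p = 0.00308). CDK6 (-0.37 ± 0.17, adjusted p = 0.151) and CDKN1B (-0.39 ± 0.13, adjusted p = 0.0553) did not pass either. CDKN1B did without DMSO 1 (adjusted p = 0.044) or MI-3454 3 (0.0448). Without the 4 libraries highest in RN7SL1 all 3 passed, CCND2 at -0.74 ± 0.12, CDK6 at -0.39 ± 0.11 and CDKN1B at -0.41 ± 0.12 (adjusted p = 0.000109, 0.00881 and 0.0115). The terms of RB1 (0.041 ± 0.18), RBL2 (0.20 ± 0.17) and CDKN2D (-0.23 ± 0.26) did not pass (adjusted p = 0.905, 0.466 and 0.587).

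**Figure D4:**
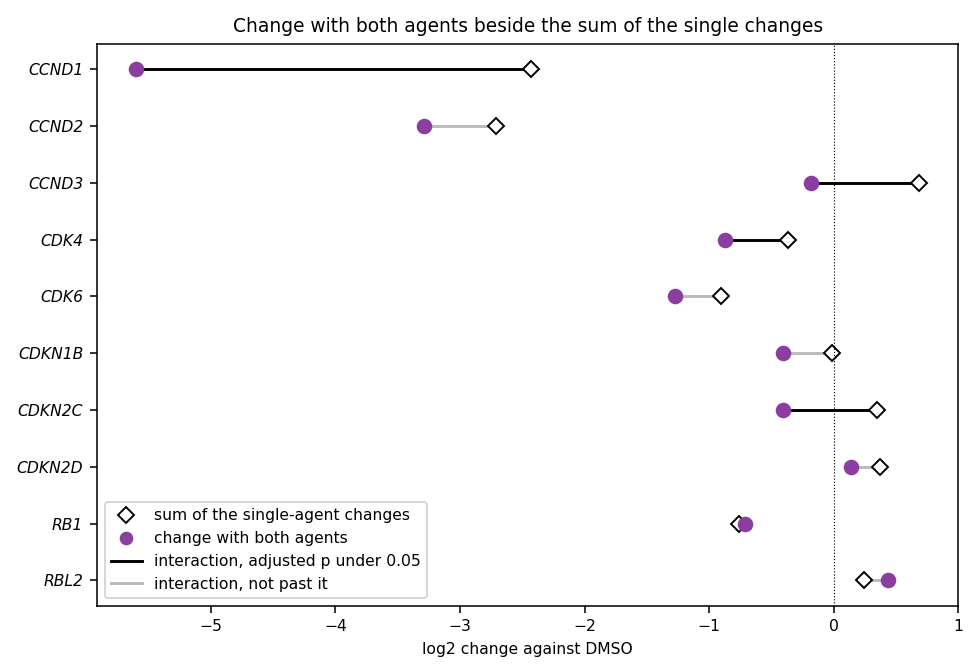
For each gene, the sum of the log2 changes with the 2 single agents (open diamonds) and the log2 change with both agents (purple circles); the joining line is black where the interaction passed the test and grey where it did not. For CCND3 the sum is 0.69 and the change with both agents is -0.18.

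For each member, the tested protein-coding genes with the most similar log2 CPM over the 12 libraries were listed by Pearson r. These r values follow the differences between the 4 groups that all genes share. CCND1 was closest to MEIS1 (r = 0.983), a HOX cofactor gene and menin-MLL target, and to PRR5L (0.979). CCND2 was closest to MTHFD2 (0.992) and PSAT1 (0.991), which encode enzymes of mitochondrial folate metabolism and serine synthesis. CDK6 was closest to SENP6 (0.993) and REEP3 (0.988), and CDK4 to BYSL (0.985), a ribosome assembly factor gene, and ZBTB9 (0.983). CDKN2C was closest to ECM1 (0.985) and PARP1 (0.979), a DNA repair gene. RB1 paired with PCM1 (0.983) and PANK1 (0.979), RBL2 with SMCHD1 (0.975) and MAN2A1 (0.973), CDKN1B with EIF4G2 (0.962) and IDI1 (0.955), CDKN2D with CNN2 (0.961) and COX4I1 (0.96), and CCND3 with PPIB (0.956) and CUTA (0.949).

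Downstream of RB1 and RBL2, a list of 20 E2F target genes of DNA replication moved in opposite directions with gilteritinib and with both agents. With gilteritinib 12 rose and none fell, against 6.92% of all genes higher, with a list median log2 change of 0.41 against -0.00063 for all genes. MCM5, a subunit of the replicative helicase, rose by 0.79 ± 0.14 from 147 to 253 CPM, and TK1, thymidine kinase, rose by 0.75 ± 0.16 on the log2 scale (adjusted p = 0.00837). The number that rose was 17 with the replicate block (17.7% of all genes higher). It was 16 without the 4 libraries highest in RN7SL1 (2132 of 13972 genes higher) and 6 without gilteritinib 1 (587 of 13972). With both agents 15 fell and none rose, against 28.4% of all genes lower, with a median of -0.38. MCM6 fell by 1.00 ± 0.12 from 169 to 84.5 CPM and the licensing factor gene CDT1 by 0.99 ± 0.14 (adjusted p = 1.14e-05). With MI-3454 the list median was 0.038, and MCM6 fell (-0.44 ± 0.13, adjusted p = 0.0362), a call lost with total-count scaling (0.0707), with the replicate block (0.126) and without any single library except DMSO 2 (0.0614 to 0.163). All 20 were called lower with both agents than with gilteritinib (30.3% of all genes), and the interaction term was called lower in 18 (8.74% of all genes). Against MI-3454, 14 were lower with both agents (15.1% of all genes). The number was 9 with total-count scaling, 6 without combination 2, 8 without combination 3 and 7 without MI-3454 1. Over all genes 2103 were lower with no library left out, 1287 without combination 2 and 1306 without combination 3. Between MI-3454 and gilteritinib 14 were lower (7.43% of all genes), but 4 with the replicate block. The number was 2, 4 and 8 without gilteritinib 1, 2 and 3, and 7 and 1 without MI-3454 1 and 2. Over all genes 1038 were lower with no library left out and 661 without gilteritinib 1.

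Among the E2F factors, their DP partners and RBL1 (11 genes), 3 rose and 1 fell with gilteritinib, against 6.92% of all genes higher and 8.18% lower. In the blocked fit 5 rose and 1 fell, against 17.7% and 17.6% of all genes. The repressor E2F genes E2F7 and E2F8 rose by 1.16 ± 0.13 and 1.07 ± 0.14, E2F2 rose by 0.81 ± 0.12, and E2F5, which works with RBL2, fell (-1.69 ± 0.21 on the log2 scale). With MI-3454, E2F8 (0.85 ± 0.17) and E2F2 (0.47 ± 0.13) rose and E2F5 fell (-1.34 ± 0.23), against 10.1% of all genes higher and 8.95% lower. The E2F2 call with MI-3454 was lost with the replicate block and without any single library except DMSO 2 and MI-3454 3 (adjusted p = 0.0505 to 0.108). With both agents 2 rose, E2F8 (0.81 ± 0.14) and E2F2 (0.51 ± 0.14), and 5 fell, against 29.2% of all genes higher and 28.4% lower. Among those that fell were E2F5 (-2.90 ± 0.30), from 7.77 to 0.977 CPM, and TFDP2 (-0.52 ± 0.12). E2F2 was not called with both agents without combination 1 (adjusted p = 0.0653). Of the 7 genes of the MuvB core and its partners, the mitotic activators MYBL2 and FOXM1 rose with gilteritinib (0.60 ± 0.12 and 0.59 ± 0.12). None of the 7 fell, against 6.92% of all genes higher and 8.18% lower. In the blocked fit 4 of the 7 rose, against 17.7% of all genes. None was called with MI-3454, against 10.1% of all genes higher and 8.95% lower. With both agents LIN52 (0.74 ± 0.17) and LIN37 (0.68 ± 0.26) rose and MYBL2 fell (-0.41 ± 0.12), against 29.2% of all genes higher and 28.4% lower. The MYBL2 call was lost without combination 3 (adjusted p = 0.0568), and that of LIN37 without DMSO 2, DMSO 3, combination 2 or combination 3 (0.0517 to 0.152) and with DESeq2 (0.0658).

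**Figure D5:**
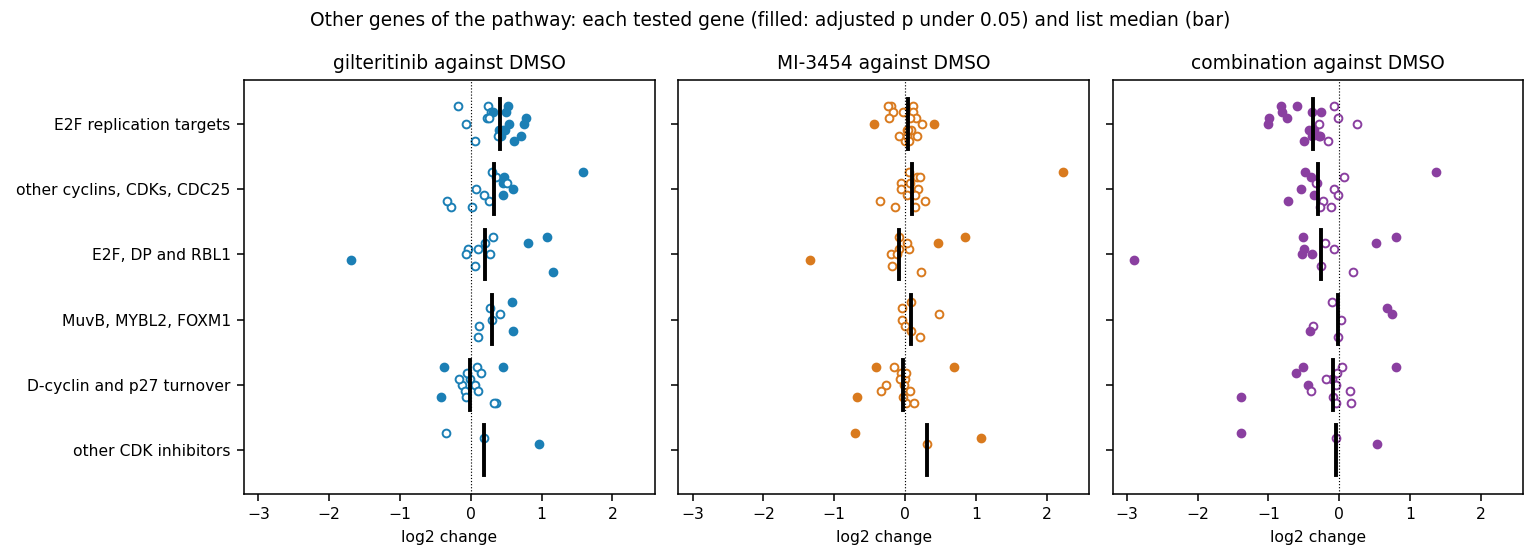
Log2 change against DMSO of each tested gene of 6 lists of the pathway (points, filled where adjusted p was under 0.05) with the list median (black bar), in 3 panels for gilteritinib, MI-3454 and both agents. The median of the E2F replication targets is 0.41 with gilteritinib, 0.038 with MI-3454 and -0.38 with both agents.

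Among 14 other cyclin, CDK and CDC25 genes, CCNA1, which encodes the cyclin A of germ cells and myeloid leukaemia, rose in every treated group. Its mean level was 47.1 ± 5.90 CPM with DMSO, 141.6 ± 14.3 with gilteritinib, 221 ± 19.1 with MI-3454 and 121.5 ± 7.88 with both agents, and its log2 changes were 1.59 ± 0.12, 2.23 ± 0.13 and 1.37 ± 0.12. With gilteritinib 5 of the 14 rose and none fell, against 6.92% of all genes higher, among them the mitotic cyclin gene CCNB2 (0.60 ± 0.13) and the cyclin E gene CCNE1 (0.46 ± 0.13), and in the blocked fit 9 rose and 2 fell, against 17.7% and 17.6% of all genes. The number that rose was 3 without DMSO 3 or gilteritinib 3, and CCNE1 lost its call without any single library except DMSO 2 (adjusted p = 0.0702 to 0.139). With MI-3454 only CCNA1 was called, against 10.1% of all genes higher and 8.95% lower. With both agents 6 fell, against 28.4% of all genes, led by CDK7 (-0.72 ± 0.13) and CDK1 (-0.54 ± 0.15), and 3 fell with total-count scaling. The interaction term was called lower in 10 of the 14, against 8.74% of all genes. With total-count scaling, which moved the median of all genes by 0.133, it was called lower in 5. Without gilteritinib 1 or combination 2 the number was 6.

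Of 5 other inhibitor genes, CDKN2A and CDKN2B had 0 counts in all 12 libraries. CDKN1A, which encodes p21, fell from 328 ± 40.7 CPM with DMSO to 200.2 ± 14.9 with MI-3454 and 126 ± 12.2 with both agents (log2 changes -0.71 ± 0.13 and -1.38 ± 0.12). With gilteritinib its mean was 256 ± 12.8 CPM (-0.35 ± 0.12, adjusted p = 0.0595), and it was called lower with the replicate block, total-count scaling, the DESeq2 Wald test, no filter, all 12 libraries or without DMSO 3. CDKN3, a phosphatase gene, rose with gilteritinib (0.96 ± 0.14) and with both agents (0.54 ± 0.15). CDKN1C, which encodes p57, rose with MI-3454 (1.07 ± 0.31, adjusted p = 0.03) from 2.99 to 6.32 CPM, a call lost with the replicate block (0.0613) or without DMSO 1, DMSO 3 or MI-3454 1 (0.0601 to 0.139). In a list of 15 genes for the turnover of D cyclins and p27, FBXO31, which encodes an F-box protein reported to target cyclin D1, fell with gilteritinib, MI-3454 and both agents (-0.42 ± 0.11, -0.68 ± 0.12 and -1.38 ± 0.13), and UBAC1, a subunit gene of the ligase that acts on p27 in the cytoplasm, rose (0.45 ± 0.13, 0.69 ± 0.16 and 0.81 ± 0.13). FBXW7, the F-box gene for cyclin E and MYC turnover, fell in all 3 as well, but its calls with each single agent were lost without any single library except DMSO 2 (adjusted p = 0.0587 to 0.135). The counts in this list were 1 higher and 2 lower with each single agent and 1 higher and 4 lower with both. Of all genes, 6.92% were higher and 8.18% lower with gilteritinib, 10.1% and 8.95% with MI-3454, and 29.2% and 28.4% with both. None of the list was called with gilteritinib without DMSO 1, gilteritinib 1 or gilteritinib 2. The UBAC1 call was lost with MI-3454 without DMSO 1 (adjusted p = 0.0532), and with gilteritinib without any single library except DMSO 2 (0.0782 to 0.143).

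Upstream, a list of 19 genes of FLT3, menin-MLL and STAT5 signalling and of D-cyclin regulators had 6 higher and 4 lower members with gilteritinib, 3 and 5 with MI-3454, and 6 and 9 with both agents. Of all genes, 6.92% and 8.18%, 10.1% and 8.95%, and 29.2% and 28.4% were higher and lower in these comparisons. With gilteritinib, leaving out any library except DMSO 2 gave 2 or 3 higher and 2 lower. PIM1, a STAT5 target kinase gene, fell from 929.6 ± 100.1 CPM with DMSO to 50.4 ± 3.44 with gilteritinib, 275 ± 23.1 with MI-3454 and 66.9 ± 6.32 with both. The log2 change of MEIS1 was -2.62 ± 0.14 with MI-3454 and -3.71 ± 0.17 with both agents, and with gilteritinib it was 0.45 ± 0.099. FLT3 itself fell from 697.6 CPM with DMSO to 521 with gilteritinib, 228 with MI-3454 and 191 with both agents, but its call with gilteritinib (-0.42 ± 0.12, adjusted p = 0.0326) was lost without any single library except DMSO 2. CEBPE, a granulocyte factor gene, rose in each treated group from 1.96 CPM to between 7.17 and 11.6. MYC fell in each treated group, from 702 ± 85.1 CPM with DMSO to 462 ± 34.1, 479 ± 39.0 and 182 ± 22.7, with log2 changes of -0.60 ± 0.12, -0.55 ± 0.13 and -1.94 ± 0.13 for gilteritinib, MI-3454 and both agents. FOXO1, a forkhead factor gene, rose with both agents from 2.92 to 14.4 CPM (2.28 ± 0.20, adjusted p = 4.1e-08) and fell with gilteritinib (-0.92 ± 0.27, adjusted p = 0.0416), a call lost with DESeq2 (0.0985) and without any single library except DMSO 2 (0.0643 to 0.136). In bulk RNA, fewer cells in a cycle phase and less transcript per cell cannot be told apart for any of these genes.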

How the data were processed

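RNA was measured in 12 MOLM-13 libraries. Each library has 1 deposited file of raw whole-number read counts by gene. Its 5 summary lines stayed out of library sizes. Per the submitters' processing notes, cutadapt 2.1, STAR 2.7.1a, HTSeq 0.11.2, DESeq2 and GRCh38 were used, in roles that are not given. The annotation release and the strand setting are likewise not given in the sources used here. Symbols matched 60340 of 60668 identifiers, and GENCODE release 29 (GRCh38) matched 58561.

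Counts were tested with edgeR 4.0.16 (R 4.3.3, limma 3.58.1) by the quasi-likelihood test after filterByExpr over the 4 groups, which kept 13972 genes. Each pair of groups had its own fit of 6 libraries with TMM scaling, and the interaction used all 12 libraries. Benjamini-Hochberg adjustment ran over all tested genes with a threshold of 0.05. Shares and sums were compared by two-sided exact permutation tests. DESeq2 1.42.0, other scalings, no filter, all 12 libraries, the replicate block and leaving out libraries were alternatives, among them the 4 libraries highest in RN7SL1 within their groups. Running them on the gene lists was chosen after seeing the data. Levels per kilobase used exon lengths from GENCODE release 29. For likeness, 0.5 was added to CPM before log2.

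The members, the gene lists and the tests were chosen with earlier results of these data known. All members are named in each comparison, with up to 4 called genes of the largest log2 change per list by the rule. CDKN1A and MEIS1 with gilteritinib, FLT3 with gilteritinib or both agents, and MYC with MI-3454 or both agents fall outside it and were named after their values were seen. Across genes, the DMSO and gilteritinib libraries that share a number deviated together (r = 0.18, 0.455 and 0.144 after subtraction of the group means). In no other pair of groups were all 3 above 0.1. Libraries of unlike number came as close in places, gilteritinib 1 with DMSO 3 at 0.262 and gilteritinib 3 with DMSO 1 at 0.13. Between these 2 groups the highest value joins DMSO 2 and gilteritinib 2, each highest in RN7SL1 in its group. Over all pairs of groups the highest joins libraries of unlike number, MI-3454 3 and DMSO 2 (r = 0.577). MI-3454 3 and gilteritinib 2 were at 0.454, and MI-3454 3 was also highest in RN7SL1 in its group. The part of RN7SL1 in these values was not tested. Whether the numbers mark paired cultures is not settled by these values, and the block is an alternative only. On simulated counts with 50 of 13972 genes changed at each fold, the test of gilteritinib against DMSO recovered 22 at 1.5-fold and 37 at 2-fold, that of MI-3454 17 and 36, and that of both agents 25 and 38, with 13, 9 and 11 false calls. The data called far more genes (2110 with gilteritinib, 2658 with MI-3454 and 8037 with both), and the adjusted threshold is less strict when more genes change. The simulated recovery is therefore not the sensitivity of the tests on the data. Figures used matplotlib 3.10.9.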

Additional observations from a re-analysis of the deposited data

Results flagged for a closer look

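In 4 members the effect of one agent differed between cells with and without the other agent, by the interaction term of edgeR's fit over all 12 libraries. The interaction log2 value was -0.87 for CCND3 (adjusted p = 0.0036), -0.757 for CDKN2C (adjusted p = 0.00113), -0.512 for CDK4 (adjusted p = 0.0256) and -3.174 for CCND1 (adjusted p = 0.0192). The CCND1 value depends on the prior count of the fit, since the combination libraries hold 3 counts in all. CCND3 and CDKN2C passed under all 18 alternatives, CDK4 under 11 and CCND1 under 16.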

How the results depend on the processing

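Counting depth limits CCND1 and, less so, CDKN2D. The calls of CCND1, CCND2 and CDK6 with MI-3454, of CCND2 and CDKN2C with gilteritinib, and all 8 calls with both agents against DMSO and all 9 against gilteritinib held under each of 13 alternatives. The number of members called with gilteritinib was 5 (3 higher, 2 lower) with the replicate block and 5 without the 4 libraries highest in RN7SL1 in their groups. With MI-3454 it was 3 with the replicate block, where same-numbered libraries did not all deviate together. The block changed no call against DMSO with both agents. Without those 4 libraries, 7 members were called in the interaction and 7 between MI-3454 and gilteritinib. With 1 library left out, the number of members called ranged from 3 to 5 with MI-3454, from 2 to 5 with gilteritinib (5 without DMSO 2), from 4 to 8 for both agents against MI-3454, from 3 to 6 for MI-3454 against gilteritinib and from 2 to 6 in the interaction. Values that changed sign were all small and uncalled. With gilteritinib, CDK6 was 0.002 with DESeq2's size factors and with its Wald test, 0.006 without the filter and with the block, and ranged from -0.11 to 0.10 with a library left out, CDKN1B was 0 without the filter and ranged from -0.078 to 0.065, and RBL2 ranged from -0.154 to 0.015. With MI-3454, CDKN1B ranged from -0.076 to 0.059 and CDKN2D from -0.241 to 0.123. Between MI-3454 and gilteritinib, CDKN1B was 0.026 with total counts and ranged from -0.07 to 0.027. In the interaction, CDKN2D ranged from -0.35 to 0.007 and RB1 from -0.081 to 0.162. The cause of these changes was not tested. The rise of the CCND3 share over DMSO was 24.5 points with gilteritinib, 21.7 with MI-3454 and 34.6 with both agents. With coding transcript lengths it was 16.1, 14.5 and 21.4, and without lengths 26.8 with gilteritinib and 37.9 with both agents. Without the 4 libraries it was 36.6 with both agents. With a library left out it ranged from 22.9 to 26.96 with gilteritinib, from 18.3 to 24.6 with MI-3454 and from 33.03 to 37.1 with both. The CDK6 share with MI-3454 changed by -11.1 points, or -6.40 without lengths, and with gilteritinib by 2.06, with a range from -0.40 (without DMSO 2) to 3.41. Over all genes, 2110 changed with gilteritinib, 4928 with the block, 4250 without the 4 libraries and 1243 to 3985 with a library left out. With MI-3454 2658 changed, and 1678 with the block. Both agents against MI-3454 gave 4075 (2456 to 5074), MI-3454 against gilteritinib 2430 (1588 to 4690, and 5133 without the 4 libraries) and the interaction 2136 (1305 to 2698, and 3478). Total-count scaling moved the median of all genes by 0.103 with both agents against DMSO, 0.124 against gilteritinib and 0.133 in the interaction.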
